A study of Tupaia belangeri chinensis with 36 samples.

Results

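Of the 76871 features counted in the fetal cortex of the Chinese tree shrew, 509 were noncoding transcripts named after axon guidance genes. They were taken by name alone, as features that start with LINC- or contain -AS- and whose gene symbol belongs to the semaphorins (SEMA), plexins (PLXN), neuropilins (NRP1 and NRP2), Eph receptors (EPHA, EPHB), ephrins (EFNA, EFNB), SLIT1 to SLIT3, the ROBOs, netrins (NTN, NTNG included), UNC5s or DCC. Among them, 208 carried an AS name and 301 a LINC name, out of 54371 LINC and AS features, and they were spread over 60 gene names. Which strand or which side of the gene a member lies on, and how long it is, was not analysed here, so levels are compared between layers and stages and never between members.

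Each library held the RNA of 1 cortical layer, cut from Nissl-stained frozen sections by laser capture, from embryos of laboratory-housed tree shrews for which no genotype is given. At E28 (embryonic day 28) there were 2 libraries each of the ventricular zone (VZ), the inner and outer subventricular zones (ISVZ and OSVZ), the intermediate zone (IZ), the cortical plate (CP) and the marginal zone (MZ). E37 gave 3 IZ and 2 MZ libraries, 1 library of the whole CP, and 2 each of its inner and outer parts (CPi and CPo). At E42 there were 2 each of the ISVZ, OSVZ, IZ, CPi, CPo and MZ and 1 of the VZ. The labels name no treatment, and do not say which libraries came from the same animal, so p-values measure the spread between these libraries, which may be in part technical.

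Axon guidance genes encode cues and the receptors on the growth cone that read them. Semaphorins signal through plexins, with neuropilins as co-receptors for the secreted ones, and ephrins through Eph receptor tyrosine kinases. SLITs signal through ROBOs, and the netrin NTN1 through DCC and the UNC5s. In the developing cortex the same systems also guide migrating neurons and act on progenitors. The features described here are annotated as transcripts other than those mRNAs. A noncoding transcript that carries the name of a guidance gene need not take part in guidance.

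The VZ, ISVZ and OSVZ are the germinal zone (GZ) layers, rich in progenitors, and the IZ, CP and MZ are the neuron-rich layers. The second VZ library of E42 was left out, because its counts were identical to those of the second VZ library of E28 (1 of 630 pairs of the 36 deposited libraries). Which of the labels is right is not known. The calls of the VZ of E28 against the ISVZ and OSVZ are therefore also given without that library. Counts on features lay between 17932690 and 102042743 per library (median 31756620, n = 35), and the members took 0.00357% to 0.0284% of them, with 52 to 178 members (median 87) having a count in a library. Coding features carry identifiers without a gene symbol, so neither the marker genes of the dissected layers nor the guidance mRNAs themselves could be looked up. The kit is not described as keeping strand and the strand setting of the counter is not given, so reads of an AS member and of the gene opposite it cannot be told apart. In such bulk tissue fewer cells of a type and less RNA per cell cannot be told apart either.

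Most members were hardly detected. No read fell on 164 of the 509 in any of the 35 libraries, 140 had 1 to 9 reads in all, 150 had 10 to 99 and 55 had 100 or more. Levels are given in CPM, the count relative to the TMM-adjusted library size, which the filter on low counts did not yet use. A member passed that filter at about 0.315 CPM of the unadjusted library size in as little as 1 library, which left 88 members. That is 17.3% of them, against 19.9% of all LINC and AS features. Of the 88, 63 were AS and 25 LINC members, and 26 reached that level in 1 library only. Every count of members that follows is out of those 88, and a member that passed through the group where it was high had to differ in some measure.

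Receptor names held more of the tested members than ligand names, but they also held more of the members in all. These counts are not read as a difference between receptors and ligands. Of the plexin members 22 of 59 were tested, of the Eph receptor members 17 of 90, of the ROBO members 8 of 33, and 4 or fewer each of the 43 neuropilin, 44 UNC5 and 17 DCC members. Among the ligands, 19 of 101 semaphorin members were tested, and 4 each of the 53 ephrin, 51 SLIT and 18 netrin members. One antisense feature, PLXNA4-AS-9, held 65.5% of all reads on members, with 117338. It was followed by EPHA5-AS-2 with 21147, NRP2-AS-1 with 9409, SEMA4F-AS-1 with 2733, EFNB2-AS-1 with 2281 and SEMA6A-AS-2 with 2118. The next were LINC-EPHA7-1 with 1548, SEMA6A-AS-1 with 1475, EPHA3-AS-1 with 1193 and NRP1-AS-2 with 1024.

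PLXNA4-AS-9 carries the name of PLXNA4, a plexin that reads class 3 and class 6 semaphorins. At E28 it stood at 2.36 and 2.23 CPM in the VZ libraries, at 32.1 and 34.2 CPM in the ISVZ and at 103 and 149 CPM in the OSVZ. The neuron-rich layers of that stage had 75.9 and 110 CPM in the IZ, 37.0 and 65.3 CPM in the CP and 78.0 and 86.1 CPM in the MZ. The 3 germinal layers thus did not overlap, and the order VZ, ISVZ, OSVZ held in both libraries of each.

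At E42 the order of the germinal layers was the same, with 16.1 CPM in the 1 VZ library, 60.7 and 76.3 CPM in the ISVZ and 94.6 and 126 CPM in the OSVZ. The IZ then had 122 and 107 CPM, the CPi 92.6 and 97.3 CPM, the CPo 132 and 156 CPM and the MZ 66.4 and 52.3 CPM. At E37, where no germinal layer was analysed here, all 10 libraries lay between 93.3 and 223 CPM (median 139.9), with the highest in the CPo. In the edgeR quasi-likelihood fit of all 26858 tested features, PLXNA4-AS-9 had the lowest p of any member for a difference among layers and stages (adjusted p = 1.6e-11). By that test 26 of 88 members passed the threshold of 0.05, against 51.2% of all features and 20.9% of the LINC and AS features tested.

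**Figure D1:**
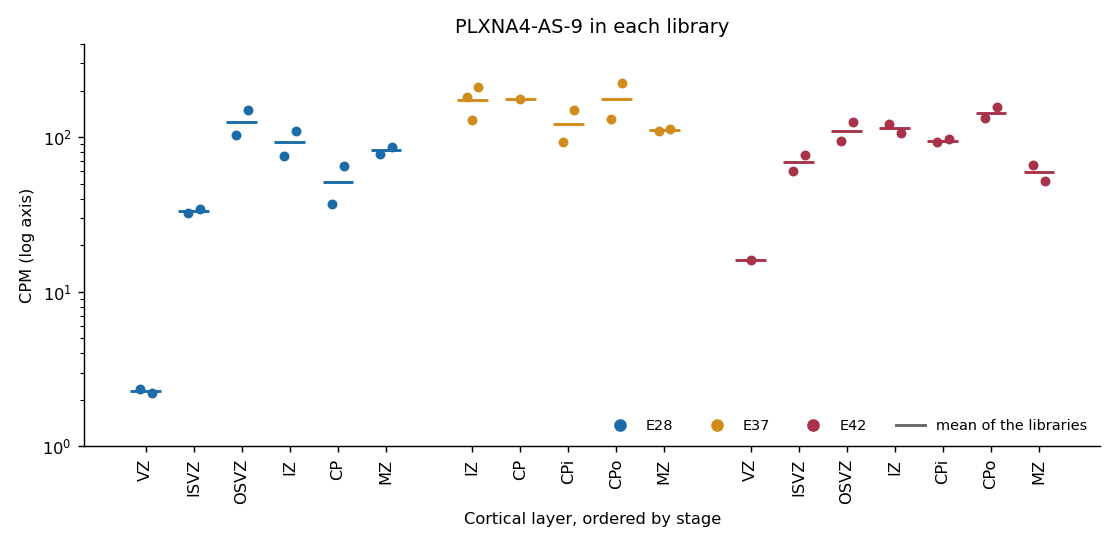
PLXNA4-AS-9 in each of the 35 libraries, in CPM on a log axis, by cortical layer and stage. Each point is a library and each line the mean of a layer, and the 2 VZ libraries of E28, at 2.36 and 2.23 CPM, lie below all others, followed by the VZ library of E42 at 16.1 CPM.

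The VZ of E28 had less of 9 members than the ISVZ and OSVZ of the same stage, and 0 members were higher there. The 9 make up 10.2% of the tested members, while 12.7% of all features and 2.79% of the LINC and AS features passed this test, and 6.21% and 1.83% passed it as lower. The members were 6 plexin names (PLXNA4-AS-9, LINC-PLXNA4-2, LINC-PLXNA4-3, LINC-PLXNA2-1, LINC-PLXNA2-5 and PLXNA2-AS-2), 2 semaphorin names (SEMA4F-AS-1 and LINC-SEMA6D-12) and the neuropilin name NRP1-AS-2. The median log2 difference over the 88 members was −0.61, and it was 0 over all features and over the LINC and AS features. Over the 93 tested LINC and AS features of other guidance gene names, introduced below, it was −0.59, so the shift was not particular to the members.

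PLXNA4-AS-9 was lower in the VZ by a log2 fold change of −4.82 (SE 0.32, adjusted p = 1.9e-11), 28.1-fold, with groups that did not overlap. LINC-SEMA6D-12, named after a transmembrane semaphorin, had 1 read in the first VZ library and 0 in the second, where the ISVZ libraries had 0.397 and 0.396 CPM and the OSVZ libraries 1.24 and 0.955 CPM. Its ISVZ and OSVZ level was 55.7 times the VZ level by the reads (102 against 1, 95% counting interval 9.77 to 2220, adjusted p = 0.00088). Both calls passed in every other fit made, with each library left out in turn and with each alternative processing.

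LINC-PLXNA2-1 had no read in either VZ library, 0.252 and 0.487 CPM in the ISVZ and 0.990 and 0.695 CPM in the OSVZ. Taking 3 reads over both VZ libraries as the limit that a count of 0 allows, it was at least 15.1-fold lower there (adjusted p = 0.0032). In the same way LINC-PLXNA2-5 was at least 11.5-fold lower (adjusted p = 0.0079), LINC-PLXNA4-3 at least 10.6-fold (adjusted p = 0.039), PLXNA2-AS-2 at least 9.64-fold (adjusted p = 0.033) and LINC-PLXNA4-2 at least 4.55-fold (adjusted p = 0.045). Each had no read in the VZ and a read in all 4 ISVZ and OSVZ libraries. PLXNA2 and PLXNA4 are both receptors for SEMA6A, whose own antisense members SEMA6A-AS-1 and SEMA6A-AS-2 did not pass this test.

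NRP1-AS-2 carries the name of the co-receptor for SEMA3A. It had 0 and 0.0495 CPM in the VZ, 0.0360 and 0.183 CPM in the ISVZ and 1.13 and 1.59 CPM in the OSVZ. By the reads, 103 against 2, the ratio was 28.1 (95% counting interval 7.59 to 235, adjusted p = 0.038). SEMA4F-AS-1, named after a membrane-bound semaphorin, had 0.160 and 0.445 CPM in the VZ against 0.433 to 1.62 CPM in the ISVZ and OSVZ (log2 fold change −1.74, SE 0.53, adjusted p = 0.025). For both, the libraries of the VZ overlapped with those of the ISVZ.

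These calls lean on 2 VZ libraries, of which the second is the one whose counts appear under both stages. With that library left out 3 of the 9 calls stayed (PLXNA4-AS-9, LINC-SEMA6D-12 and SEMA4F-AS-1), without the first VZ library 3 stayed (PLXNA4-AS-9, LINC-SEMA6D-12 and LINC-PLXNA2-1), and with the repeated counts kept under both labels 5 stayed. At E42 the 1 VZ library had reads on all 5 members that had none in the VZ of E28, from 0.207 CPM for LINC-PLXNA2-1 to 0.326 CPM for LINC-PLXNA2-5, LINC-PLXNA4-3 and PLXNA2-AS-2.

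**Figure D2:**
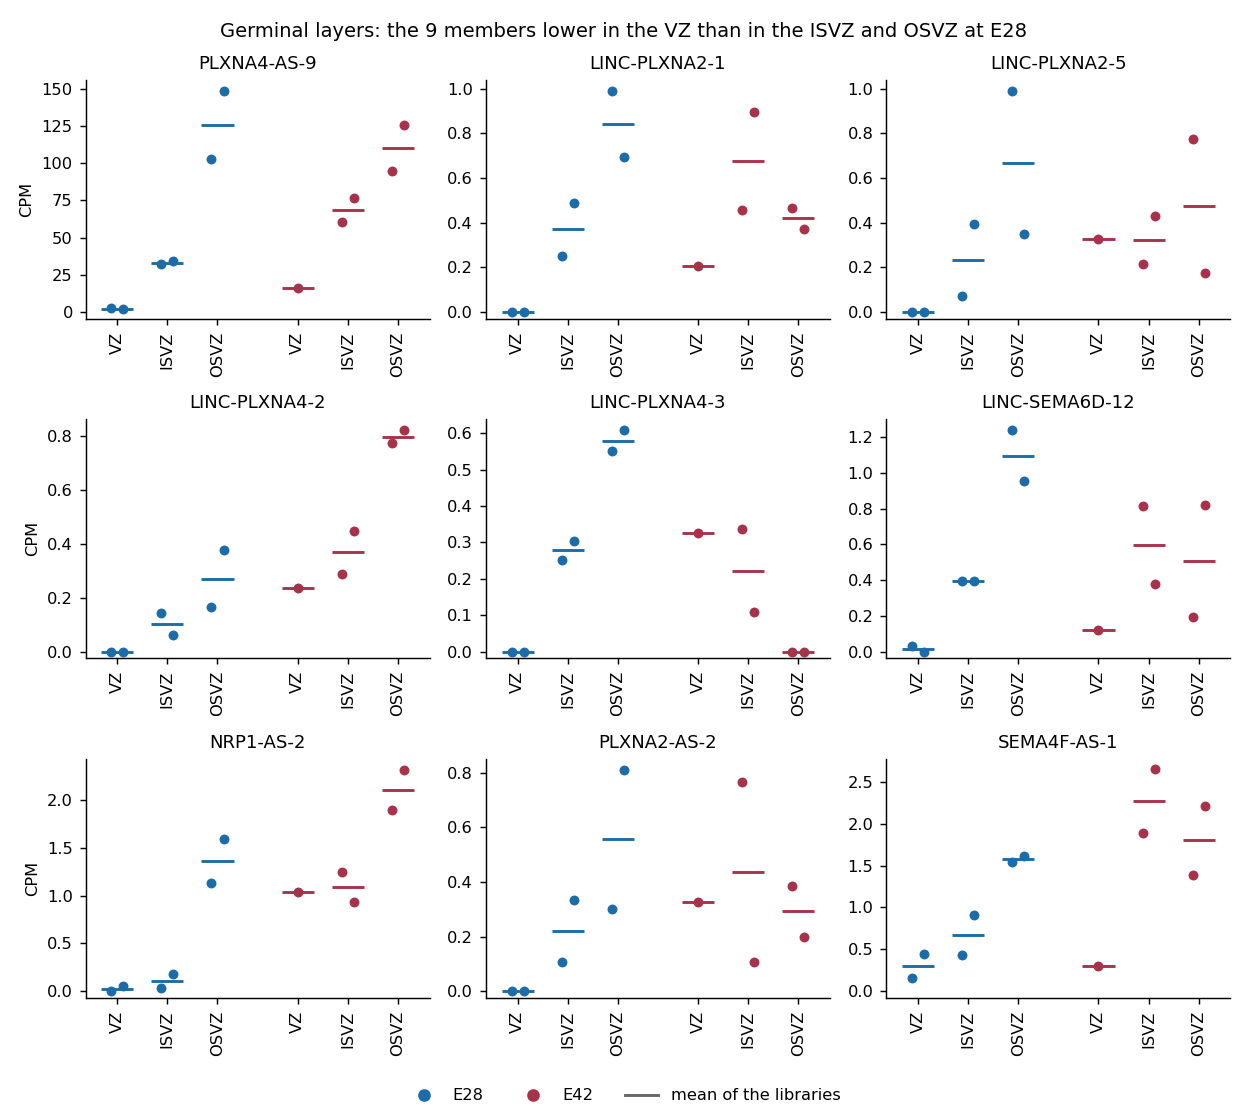
The 9 members that were lower in the VZ than in the ISVZ and OSVZ at E28, in each germinal library of E28 and E42, in CPM with an axis of its own for each member. Each point is a library and each line a mean, and 5 of the 9 lie at 0 in both VZ libraries of E28 and above 0 in the VZ library of E42.

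Between the subventricular layers, with E28 and E42 averaged, 1 member passed the threshold, against 5.33% of all features (2.64% higher in the OSVZ, 2.68% lower) and 0.748% of the LINC and AS features (0.332% and 0.415%). It was PLXNA4-AS-9, higher in the OSVZ (94.6 to 149 CPM, 4 libraries) than in the ISVZ (32.1 to 76.3 CPM, 4 libraries) by a log2 fold change of 1.30 (SE 0.20, adjusted p = 0.00014), with no overlap. With the repeated counts kept as a second E42 VZ library it did not pass (adjusted p = 0.058).

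The comparison of GZ against neuron-rich layers asks which members mark progenitor-rich tissue. At E28 15 of 88 members (17%) passed it, 6 higher and 9 lower in the GZ, against 35.7% of all features (18.5% higher, 17.1% lower) and 16.6% of the LINC and AS features (6.35% higher, 10.3% lower). At E42 17 members (19.3%) passed it, 12 higher and 5 lower, against 30.1% of all features (15.6% higher, 14.4% lower) and 12% of the LINC and AS features (7.31% higher, 4.73% lower). The median log2 difference of the members was −0.48 at E28 (−0.05 over all features, −0.30 over LINC and AS features) and −0.03 at E42 (0.07 and 0.20).

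Among the ligands, EFNB2-AS-1 was the ephrin member with the most reads. It is named after ephrin-B2, a membrane-bound ligand of EphB receptors. At E28 the 6 GZ libraries had 2.92, 4.60 and 6.92 CPM (lowest, median and highest), and the 6 neuron-rich libraries 1.46, 1.90 and 4.51 CPM. The GZ was higher at E28 (log2 fold change 1.04, SE 0.35, adjusted p = 0.018) and at E42 (1.51, SE 0.36, adjusted p = 0.0015). At E42 the 5 GZ libraries had 2.04, 3.31, 2.92, 0.502 and 1.39 CPM (1 of the VZ, then 2 each of the ISVZ and OSVZ) and the neuron-rich libraries at most 1.15 CPM. The E42 call stayed in every other fit, while at E28 it did not pass without any 1 of the second libraries of the VZ, ISVZ, OSVZ and IZ (adjusted p up to 0.071).

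SEMA4F-AS-1 went the other way, lower in the GZ at E28 (log2 fold change −1.06, SE 0.32, adjusted p = 0.0087) and at E42 (−1.61, SE 0.35, adjusted p = 5e-04). Its E42 level was 0.296 CPM in the VZ, 1.89 and 2.65 CPM in the ISVZ and 1.39 and 2.21 CPM in the OSVZ, against 2.15 to 5.69 CPM in the neuron-rich layers. The E28 call stayed in every other fit, and the E42 call was lost without the VZ library (log2 fold change −0.76, adjusted p = 0.087). SEMA6A-AS-1 was lower in the GZ at E28, with 0.0721, 0.359 and 0.618 CPM against 0.258, 1.01 and 2.09 CPM (log2 fold change −1.50, SE 0.56, adjusted p = 0.035). It lost the call without any 1 of 6 E28 libraries (adjusted p up to 0.16).

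LINC-SEMA6D-12 was lower in the GZ at E42 alone by this test (log2 fold change −1.35, SE 0.52, adjusted p = 0.048), at 0.118 to 0.821 CPM against 0.512 to 1.36 CPM, and lost the call without any 1 of 15 libraries. The change between stages did not pass (adjusted p = 1). The netrin member NTN4-AS-3 had 1 read in the 6 GZ libraries of E28 and 33 in the neuron-rich ones (adjusted p = 0.019, ratio 37.9, 95% counting interval 6.35 to 1540). Of those 33 reads 22 came from the first MZ library of E28, and NTN4-AS-3 reached the filter level in neuron-rich libraries alone. It lost the call without the first MZ library or the second CP library of E28. SLIT2-AS-9, after the ligand of the ROBOs, was called higher in the GZ at E42 (adjusted p = 0.036). It had 0.563 CPM in the E42 VZ and 0.0179 to 0.0995 CPM in the ISVZ and OSVZ. Reads lay in 1 of 8 neuron-rich libraries, the first MZ library, which had 20 reads and, at 0.191 CPM, stood above the ISVZ and OSVZ. SLIT2-AS-9 reached the filter level in the E42 VZ library alone and lost the call without any 1 of 6 E42 libraries.

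Among the receptors, PLXNA4-AS-9 was lower in the GZ at both stages, by a log2 fold change of −1.78 at E28 (SE 0.17, adjusted p = 1.3e-09) and −0.90 at E42 (SE 0.18, adjusted p = 0.00018). The 3 layers on each side weigh alike in this comparison. Of the E28 GZ libraries those of the VZ and ISVZ stood below the neuron-rich range of 37.0 to 110 CPM, 1 of the OSVZ within it and the other above it. Without the 1 VZ library of E42 the difference at that stage was −0.16 (adjusted p = 0.56), and the E28 call stayed in every other fit.

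LINC-PLXNA2-19 was higher in the GZ at both stages. At E28 it had 2.46 and 2.84 CPM in the VZ, 1.80 and 2.56 CPM in the ISVZ and 1.10 and 0.492 CPM in the OSVZ, against 0.270 to 0.760 CPM in the neuron-rich layers (log2 fold change 1.93, SE 0.62, adjusted p = 0.015). At E42 the 5 GZ libraries had 0.0537 to 0.348 CPM and the 8 neuron-rich ones 0 to 0.182 CPM (log2 fold change 2.62, SE 0.77, adjusted p = 0.009). The call was lost without the first IZ or the first OSVZ library at E28 (adjusted p up to 0.055) and without the first ISVZ or the first OSVZ library at E42 (adjusted p up to 0.069). In the ISVZ and OSVZ its order was opposite to that of PLXNA4-AS-9 at E28, with all ISVZ libraries above all OSVZ libraries, although the test between those layers was not passed.

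The other PLXNA2 names did not share 1 pattern. PLXNA2-AS-6 was higher in the GZ at E42, with 0.464 to 2.01 CPM in the GZ and 0.0241 to 0.284 CPM outside it and no overlap (log2 fold change 2.64, SE 0.68, adjusted p = 0.0033), in every fit. PLXNA2-AS-5 was also higher, at 0.503 to 2.25 CPM against 0 to 0.985 CPM (log2 fold change 1.83, SE 0.69, adjusted p = 0.042), a call lost without any 1 of 21 libraries. PLXNA2-AS-1 and PLXNA2-AS-2 were higher at E42 too (adjusted p = 0.022 and 0.016), the first with 21 reads against 6. Of those 21 reads 11 came from the VZ library, the only one in which PLXNA2-AS-1 reached the filter level, and its call was lost without any 1 of 5 E42 libraries (adjusted p up to 0.059). The call of PLXNA2-AS-2 was lost without the first ISVZ or the second MZ library of E42 (adjusted p up to 0.11). PLXNA2-AS-7 was higher at E28 (31 reads against 2, ratio 13.5 with a 95% counting interval of 3.43 to 116, adjusted p = 0.021), and lost the call without any 1 of 5 E28 libraries (adjusted p up to 0.13). PLXNC1-AS-1, another plexin name, was higher at E28 too (34 reads against 2, ratio 14.8, interval 3.79 to 127, adjusted p = 0.014), and lost the call without the first VZ or the first OSVZ library. Both PLXNA2-AS-7 and PLXNC1-AS-1 reached the filter level in GZ libraries alone, so they entered the test through the side called higher. LINC-PLXNA2-5 was lower at E28 (63 reads in 4 of 6 GZ libraries, 81 in 5 of 6 others, adjusted p = 0.029), and lost the call without any 1 of 6 E28 libraries.

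The Eph receptor members fell on both sides, 2 higher and 4 lower at E28 and 4 higher and 1 lower at E42. EPHA5-AS-2, named after a receptor for ephrin-A ligands, had 14.1, 17.1 and 21.6 CPM in the GZ libraries of E28 and 8.32, 11.2 and 15.5 CPM in the neuron-rich ones (log2 fold change 0.58, SE 0.20, adjusted p = 0.021). At E42 the difference was 0.60 (SE 0.20, adjusted p = 0.023), but the VZ library had 40.4 CPM and the ISVZ and OSVZ libraries 11.0 to 24.8 CPM, over the neuron-rich range of 12.5 to 19.0 CPM. Without the VZ library of E42 the difference was 0.15 (adjusted p = 0.68), and 13 single libraries each cost that call. At E28 the call was lost without the first CP library or the second VZ library.

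LINC-EPHA7-1, after another receptor of this class, was lower in the GZ at E28, with 0.415, 0.782 and 1.29 CPM against 1.38, 1.67 and 4.03 CPM and no overlap (log2 fold change −1.32, SE 0.40, adjusted p = 0.010). At E42 the OSVZ libraries had 0.0773 and 0.0746 CPM, the ISVZ libraries 0.575 and 0.394 CPM and the VZ library 0.859 CPM, against 0.670 to 2.69 CPM in the neuron-rich layers (log2 fold change −2.33, SE 0.48, adjusted p = 0.00033). The E42 call stayed in every other fit, and the E28 call was lost without the second CP library (adjusted p = 0.06). LINC-EPHA7-5 had no read in the 6 GZ libraries of E28 and 24 in 5 of the 6 neuron-rich ones, at least 9.19-fold lower (adjusted p = 0.038). EPHB1-AS-1 had the same counts, 0 against 24, in 4 of 6 libraries (adjusted p = 0.031, and 0.051 with the replicate number as a block). Of those 24 reads 18 came from the first MZ library of E28, the only library in which EPHB1-AS-1 reached the filter level. LINC-EPHA7-5 reached that level in neuron-rich libraries alone. EPHB1-AS-5 had 0.180, 0.509 and 1.53 CPM in the GZ of E28 and 0.940, 1.32 and 2.42 CPM outside it (log2 fold change −1.36, SE 0.44, adjusted p = 0.016). That call was lost without the first VZ or the first ISVZ library (adjusted p up to 0.068). The calls of LINC-EPHA7-5 and EPHB1-AS-1 were lost without any 1 of 10 and 8 libraries.

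EPHB4, a receptor best known from the endothelium of veins, gave 3 tested antisense members, whose calls at E42 were each lost without single libraries. EPHB4-AS-2 reached the filter level in GZ libraries alone. They were the second ISVZ library of E28 (0.548 CPM) and, barely, the first OSVZ library of E42 (8 reads). EPHB4-AS-2 was higher in the GZ at both stages. At E28 it had reads in 6 of 6 GZ libraries (39 in all) and in 1 of 6 neuron-rich ones (2 in all, ratio 17 with a 95% counting interval of 4.4 to 145, adjusted p = 0.012). At E42 it had 27 reads in 5 GZ libraries against 5 in 2 of 8 others (adjusted p = 0.039). The E28 call stayed in every other fit that gave it a p, and the E42 call was lost without any 1 of 13. EPHB4-AS-3 had 0.340 to 0.773 CPM in the GZ of E42 against 0 to 0.414 CPM (log2 fold change 2.25, SE 0.77, adjusted p = 0.027). EPHB4-AS-1 had 0.0959 to 0.474 CPM against 0 to 0.386 CPM (adjusted p = 0.05, and 0.061 with the replicate number as a block). These calls were lost without any 1 of 5 and 28 libraries. ROBO2-AS-3, after a SLIT receptor, had no read in the 5 GZ libraries of E42 and 43 in 7 of 8 neuron-rich ones, at least 7.24-fold lower (adjusted p = 0.048). It lost the call without any 1 of 13 libraries. The only library in which ROBO2-AS-3 reached the filter level was the second MZ library of E28.

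**Figure D3:**
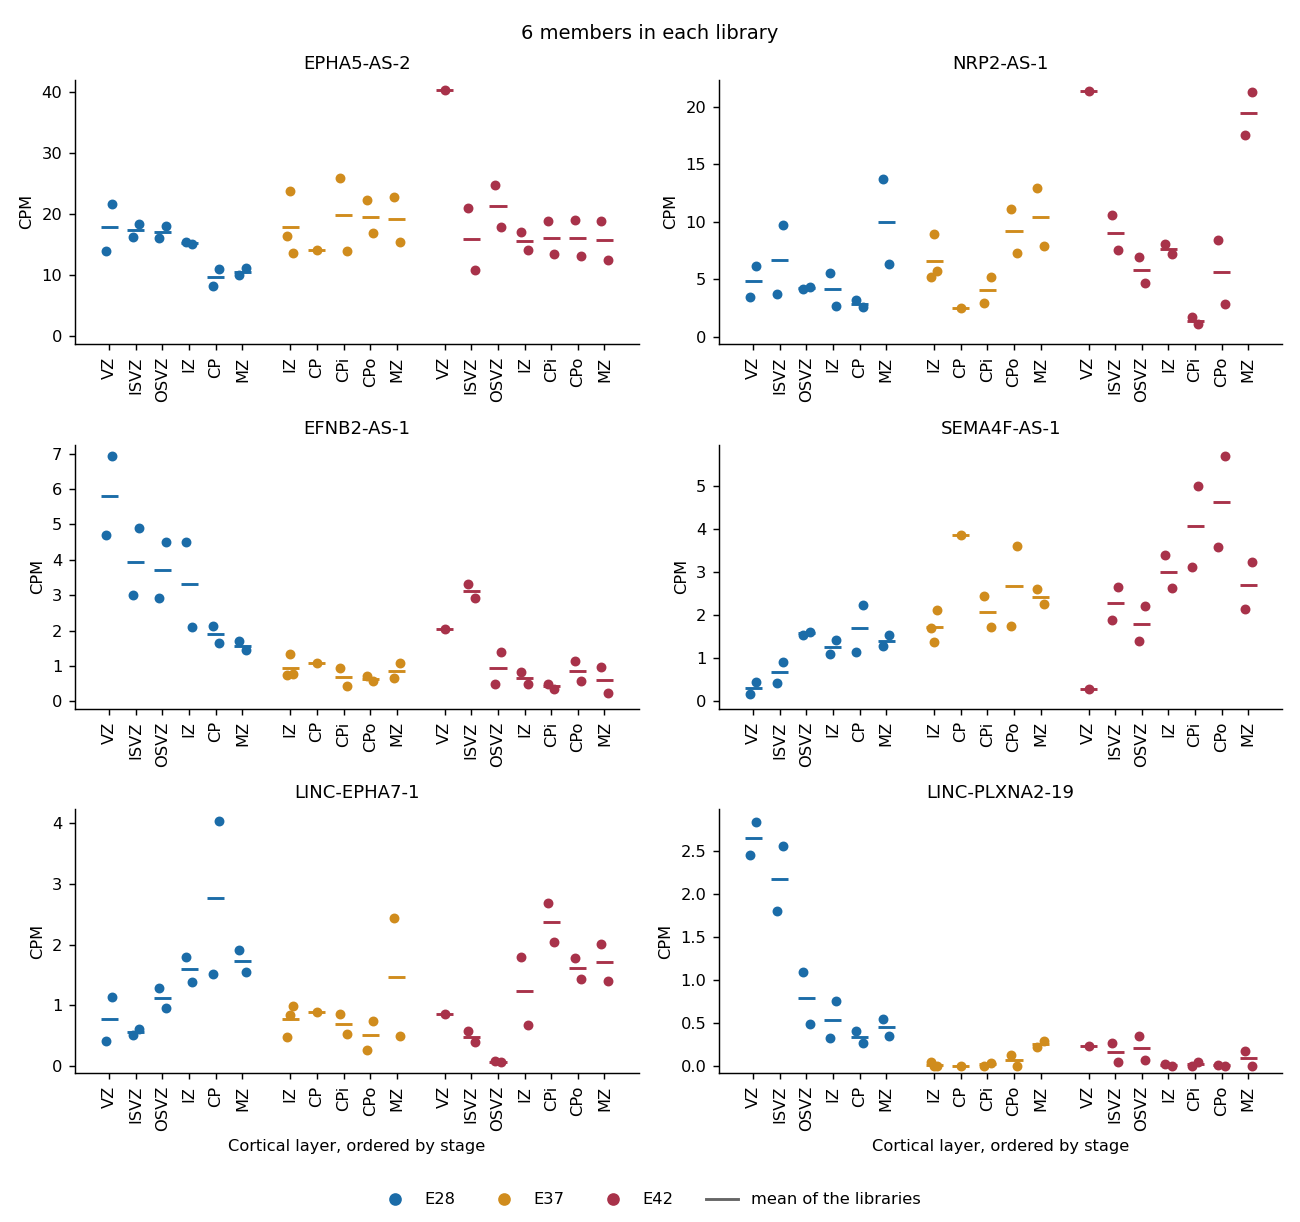
CPM of 6 members in each of the 35 libraries, by cortical layer and stage, with an axis of its own for each member. Points are libraries and lines means. The highest means of EFNB2-AS-1 and LINC-PLXNA2-19 lie in the germinal layers of E28, those of SEMA4F-AS-1 in the CPi and CPo of E42, and the single E42 VZ library stands highest for EPHA5-AS-2 (40.4 CPM) and NRP2-AS-1 (21.4 CPM).

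From E28 to E42 the neuron-rich layers changed in 7 members, 3 of them higher and 4 lower at E42, against 27.3% of all features (17.1% higher, 10.2% lower) and 11.2% of the LINC and AS features (7.07% higher, 4.18% lower). EFNB2-AS-1 fell from 1.46 to 4.51 CPM in 6 libraries to 0.241 to 1.15 CPM in 8, with no overlap (log2 fold change −1.73, SE 0.34, adjusted p = 0.00023). LINC-PLXNA2-19 fell from 0.270 to 0.760 CPM in 6 of 6 libraries to reads in 4 of 8, at most 0.182 CPM (log2 fold change −3.76, SE 0.72, adjusted p = 0.00018). EPHB1-AS-5 fell from 0.940, 1.32 and 2.42 CPM to 0.0965, 0.445 and 0.953 CPM (lowest, median and highest, log2 fold change −1.80, SE 0.43, adjusted p = 0.0017).

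SEMA4F-AS-1 rose from 1.10, 1.35 and 2.25 CPM to 2.15, 3.31 and 5.69 CPM (log2 fold change 1.18, SE 0.29, adjusted p = 0.0029). These 4 calls stayed in every other fit. The remaining 3 were lost without 1 of several libraries. They were SEMA6A-AS-2 (log2 fold change 1.00, SE 0.35, adjusted p = 0.029), NTN1-AS-3 (5 reads in 1 of 6 E28 libraries and 69 in 8 of 8 E42 libraries, adjusted p = 0.021) and PLXNA2-AS-2 (log2 fold change −2.46, SE 0.85, adjusted p = 0.031). The adjusted p then went up to 0.13, 0.085 and 0.1. At E37 the neuron-rich libraries had a median of 0.754 CPM of EFNB2-AS-1, 0.0191 CPM of LINC-PLXNA2-19 and 2.18 CPM of SEMA4F-AS-1, each between the medians of the other stages.

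In the ISVZ and OSVZ, 4 members differed between E28 and E42, 1 higher and 3 lower at E42, against 22.2% of all features (12.5% higher, 9.64% lower) and 8.11% of the LINC and AS features (6.82% higher, 1.29% lower). LINC-EPHA7-1 fell from 0.505 to 1.29 CPM to 0.0746 to 0.575 CPM (log2 fold change −2.02, SE 0.56, adjusted p = 0.0089), in every fit. LINC-PLXNA2-19 fell from 0.492 to 2.56 CPM to 0.0537 to 0.348 CPM with no overlap (log2 fold change −2.87, SE 0.80, adjusted p = 0.0093). That call was lost without the second ISVZ or the second OSVZ library of E42 (adjusted p up to 0.055). NRP1-AS-2 rose from 0.0360 and 0.183 CPM in the ISVZ and 1.13 and 1.59 CPM in the OSVZ to 1.25 and 0.931 CPM and 1.89 and 2.31 CPM (log2 fold change 1.93, SE 0.68, adjusted p = 0.041). LINC-PLXNA4-3 had 58 reads at E28, in 4 of 4 libraries, and 20 at E42, in the ISVZ only (adjusted p = 0.047). The last 2 calls were lost without any 1 of 9 and 11 libraries.

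The difference between GZ and neuron-rich layers itself changed from E28 to E42 in 4 members, 4 of them towards the GZ, against 15% of all features and 4.85% of the LINC and AS features (6.67% and 3.76% in that direction, 8.31% and 1.1% in the other). SEMA4D-AS-2, after the ligand of PLXNB1, had a median of 0.316 CPM in the GZ and 0.783 CPM outside it at E28, and 0.770 CPM and 0.187 CPM at E42. Its log2 difference went from −1.10 (adjusted p = 0.12) to 1.91 (adjusted p = 0.0077), a change of 3.01 (SE 0.78, adjusted p = 0.0074). The low neuron-rich values of E42 were those of the CPi, CPo and MZ (0.0476 to 0.213 CPM). The IZ libraries of E42 had 1.28 and 1.26 CPM, within the GZ range of 0.734 to 2.49 CPM. PLXNA2-AS-2 changed by 4.64 (SE 1.31, adjusted p = 0.015), EPHB1-AS-5 by 2.15 (SE 0.63, adjusted p = 0.019) and PLXNA4-AS-9 by 0.88 (SE 0.24, adjusted p = 0.010). The last was not called with the repeated counts kept as labelled (adjusted p = 0.44). The change of PLXNA2-AS-2 was not called without the first ISVZ library of E42 (adjusted p = 0.051). That of EPHB1-AS-5 was not called without the first VZ library of E28 or the second OSVZ library of E42 (adjusted p up to 0.12).

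The MZ is the outermost layer, next to the pia, and holds Cajal-Retzius cells and the processes of many others. Averaged over the 3 stages, 17 members (19.3%) differed between MZ and CP, 12 higher and 5 lower in the MZ, against 29.3% of all features and 9.2% of the LINC and AS features. By direction, 15% of all features and 5.76% of the LINC and AS features were higher, and 14.3% and 3.44% were lower. Of the 12 higher members 6 carried semaphorin names, 2 ROBO names, and 1 each an Eph receptor, ephrin, neuropilin and plexin name. Semaphorin names made up 19 of the 88 tested members. Most of the 6 were LINC members named after SEMA6A with few reads, described below, so the tally supports nothing about semaphorins.

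NRP2-AS-1, after the co-receptor for SEMA3F, was the member with the lowest p in this comparison. It had 6.30, 13.3 and 21.3 CPM in 6 MZ libraries and 1.11, 2.88 and 11.1 CPM in 11 CP, CPi and CPo libraries (log2 fold change 1.88, SE 0.26, adjusted p = 1.5e-06). The call stayed in every other fit. Within each stage the MZ libraries lay above the plate libraries at E28 (13.7 and 6.30 CPM against 3.16 and 2.54) and at E42 (17.6 and 21.3 CPM against 1.11 to 8.44). They overlapped at E37 (13.0 and 7.91 CPM against 2.47 to 11.1).

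NRP2-AS-1 was also the 1 member that differed between the inner and outer plate, where 0.976% of all features and 0.12% of the LINC and AS features passed. At E37 the CPi libraries had 2.88 and 5.15 CPM and the CPo libraries 11.1 and 7.29 CPM, and at E42 the CPi libraries 1.67 and 1.11 CPM and the CPo libraries 8.44 and 2.81 CPM. Within each stage both CPi libraries lay below both CPo libraries (log2 fold change −1.61, SE 0.36, adjusted p = 0.022). The call was lost without any 1 of 5 of the 8 plate libraries (log2 fold change −1.90 to −1.10 over single libraries left out, adjusted p up to 0.28). It was higher in the IZ than in the CP by a smaller step (log2 fold change 0.79, SE 0.25, adjusted p = 0.025), a call lost without any 1 of 7 libraries. Its 1 E42 VZ library had 21.4 CPM, as much as the higher E42 MZ library.

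Both members named after ROBO4, a ROBO known from vascular endothelium, were higher in the MZ. ROBO4-AS-1 had 0.183, 0.384 and 0.926 CPM in the MZ and 0, 0.0357 and 0.206 CPM in the CP (log2 fold change 3.12, SE 0.79, adjusted p = 0.0026). LINC-ROBO4-1 had 0.265, 0.593 and 0.832 CPM against 0, 0.152 and 0.576 CPM (log2 fold change 2.13, SE 0.56, adjusted p = 0.0038). Both calls stayed in every other fit. LINC-ROBO4-1 was higher in the IZ too (log2 fold change 1.71, SE 0.55, adjusted p = 0.025), which did not hold without 1 of 4 libraries (adjusted p up to 0.091). EPHB4-AS-3 was higher in the MZ (log2 fold change 3.15, SE 0.81, adjusted p = 0.0035). At E37 and at E42 its MZ reads lay in 1 of 2 libraries, and without either of those it did not pass (adjusted p up to 1).

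Among the members named after SEMA6A, SEMA6A-AS-2 carried most reads. It was higher in the MZ, with 0.789, 1.19 and 6.01 CPM there and 0.357, 0.618 and 1.68 CPM in the CP (log2 fold change 1.06, SE 0.32, adjusted p = 0.012). The highest value came from the first MZ library of E42, without which, or without the first CP library of E28, it did not pass (adjusted p up to 0.11). A group of 4 LINC members called higher in the MZ had few reads, and LINC-SEMA6A-17, LINC-SEMA6A-9 and LINC-SEMA6A-5 reached the filter level in MZ libraries alone, so their number supports nothing. LINC-SEMA6A-17 had 54 in 5 of 6 MZ libraries and 4 in 1 of 11 plate libraries, and LINC-SEMA6A-2 had 36 in 5 and 6 in 3. LINC-SEMA6A-9 had 29 in 4 and 5 in 2, and LINC-SEMA6A-5 had 24 in 3 and 1 in 1 (ratio 37.7, 95% counting interval 6.15 to 1550). In that order their adjusted p was 0.0025, 0.007, 0.021 and 0.026. Each was lost without 1 library or more (the first MZ library of E42 for LINC-SEMA6A-17, the second MZ library of E28 for LINC-SEMA6A-2). LINC-SEMA6A-17, LINC-SEMA6A-9 and LINC-SEMA6A-5 had an adjusted p of 1 with the replicate number as a block.

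LINC-SEMA6D-12 was higher in the MZ and in the IZ than in the CP, with a median of 0.665 CPM in the MZ, 0.877 CPM in the IZ and 0.464 CPM in the CP. The log2 fold changes were 1.24 (SE 0.43, adjusted p = 0.029) and 1.53 (SE 0.42, adjusted p = 0.0084), the first lost without any 1 of 8 libraries and the second without the second CP library of E28. At E42 the CPi libraries had 1.29 and 0.602 CPM and the MZ libraries 1.36 and 0.676 CPM, which overlapped. At E28 the CP libraries had 0.123 and 0.0811 CPM and the MZ libraries 0.637 and 0.750 CPM, which did not.

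EFNA1-AS-1 (68 reads in 5 of 6 MZ libraries, 19 in 10 of 11 plate libraries, adjusted p = 0.042) and LINC-PLXNA2-19 (60 in 5 and 27 in 6, adjusted p = 0.012) were also higher in the MZ. The log2 fold change of the second was 2.16 (SE 0.65), and 0.45 without the first MZ library of E42. Lower in the MZ were 2 EPHB1 names, 2 PLXNA2 names and EFNA2-AS-1. EPHB1-AS-5 had 0, 0.139 and 1.32 CPM in the MZ and 0.386, 0.607 and 2.42 CPM in the CP (log2 fold change −2.57, SE 0.51, adjusted p = 0.00019), in every fit. The MZ values were 0.940 and 1.32 CPM at E28, 0.0556 and 0 CPM at E37 and 0.182 and 0.0965 CPM at E42, each pair below the plate libraries of its stage. EFNA2-AS-1 (log2 fold change −1.90, SE 0.61, adjusted p = 0.017), PLXNA2-AS-4 (−1.90, SE 0.63, adjusted p = 0.021), LINC-PLXNA2-1 (−1.74, SE 0.67, adjusted p = 0.049) and LINC-EPHB1-8 (−3.49, SE 1.13, adjusted p = 0.019) were the others. They lost the call when any 1 of 1, 2, 16 and 1 libraries, in that order, was left out.

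**Figure D4:**
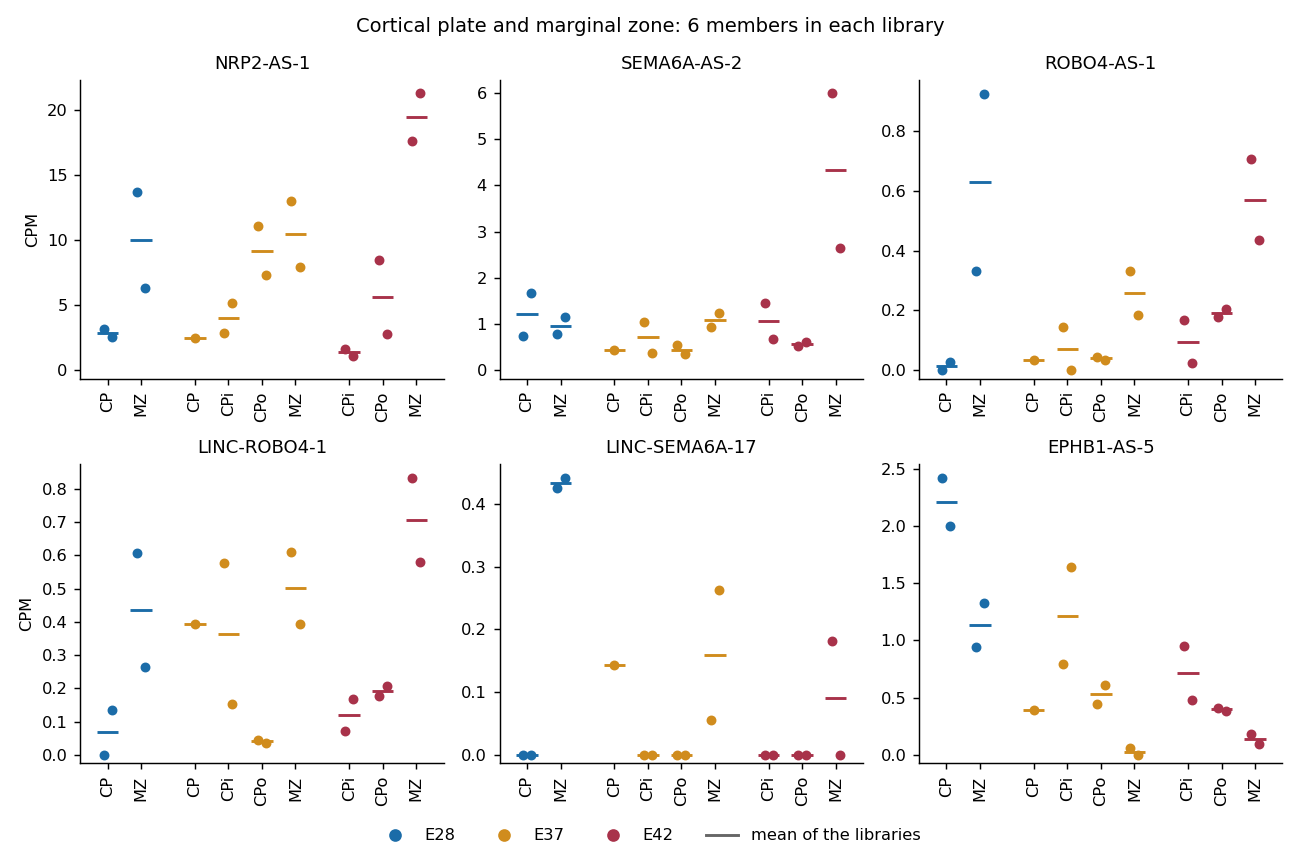
CPM of 6 members in the cortical plate (CP, CPi, CPo) and marginal zone (MZ) libraries of each stage, with an axis of its own for each member. Points are libraries and lines means. Within each stage all MZ libraries lie above all plate libraries in ROBO4-AS-1, and below them in EPHB1-AS-5.

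In the IZ, through which neurons migrate and axons run, 9 members (10.2%) were higher than in the CP and 0 were lower, against 19.6% of all features and 4.78% of the LINC and AS features (10% and 3.59% as higher, 9.57% and 1.19% as lower). They came from 7 of the 10 families: 2 Eph receptor, 2 semaphorin and 1 each of the ROBO, SLIT, UNC5, neuropilin and plexin names. The median log2 difference of the members was 0.73, against 0.07 over all features and 0.27 over the LINC and AS features. PLXNA2-AS-5 had 0.195, 0.562 and 0.985 CPM in 7 IZ libraries and 0.0360, 0.107 and 0.426 CPM in 11 plate libraries (log2 fold change 2.04, SE 0.63, adjusted p = 0.021). LINC-EPHA7-5 had 79 reads in 6 of 7 IZ libraries and 14 in 3 of 11 plate libraries (adjusted p = 0.016, and 0.05 with the replicate number as a block).

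SLIT2-AS-11 had 28 reads in 6 IZ libraries and 3 in 2 plate libraries (ratio 16.2, 95% counting interval 5.01 to 83.4, adjusted p = 0.034). LINC-UNC5A-3 had 14 in 5 and 1 in 1 (ratio 24.4, interval 3.7 to 1030, adjusted p = 0.035, and 1 with the block). SEMA4D-AS-2 (log2 fold change 1.29, SE 0.46, adjusted p = 0.046) and EPHA3-AS-1 (1.26, SE 0.45, adjusted p = 0.048) stood close to the threshold. These calls compare the IZ with the CP alone. In the adjacent OSVZ (4 libraries of E28 and E42) PLXNA2-AS-5 had a median of 0.860 CPM, against 0.562 CPM in the IZ. The OSVZ median was also higher for EPHA3-AS-1 (1.70 against 1.08 CPM), LINC-UNC5A-3 (0.103 against 0.0345) and LINC-SEMA6D-12 (0.888 against 0.877). It was lower than in the IZ for the other called members, with no OSVZ read of LINC-EPHA7-5. Of the 8 calls followed through the fits that left out 1 library (EPHA3-AS-1 was not among them), 0 stayed in all. The count fell to 3 without the first IZ library or without the second CP library of E28.

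In all, 45 of the 88 tested members passed at least 1 of the 10 comparisons and 42 passed neither these nor the test of any difference. How many of all features passed at least 1 comparison was not counted, so the 45 are not read as many or few. In a single comparison up to 35.7% of all features passed. Of the 82 calls in members named here by rule, 0 turned direction when a library was left out or the processing changed, 18 stayed past the threshold in every fit and 62 were lost without at least 1 library. The share of members that passed was below that of all features in 9 of the 10 comparisons, and above that of the LINC and AS features in 7 of 10. The list of 73 other guidance gene names (among them NEO1, ALCAM, LRRC4C, FYN and GFRA1) gave 407 LINC and AS features for 65 names, of which 93 were tested. Of those, 14 passed at E28 between GZ and neuron-rich layers (2 higher, 12 lower), and 7 at E42 (2 and 5). Another 7 passed between MZ and CP (1 and 6), 5 between IZ and CP (1 and 4) and 3 between the VZ and the ISVZ and OSVZ (0 and 3).

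For the remaining comparisons, in the order of the change between stages, the ISVZ and OSVZ from E28 to E42, the neuron-rich layers from E28 to E42, the OSVZ against the ISVZ, and the CPi against the CPo, the other guidance features that passed were 5 (4 and 1), 3 (3 and 0), 11 (5 and 6), 2 (0 and 2) and 0. For the last of these 4 features had an unadjusted p under 0.05 in edgeR. NEO1-AS-3, after a netrin family receptor, was lower in the GZ at E28 (log2 fold change −1.56, SE 0.26, adjusted p = 1.2e-05), and lower in the MZ than in the CP (log2 fold change −1.10).

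**Figure D5:**
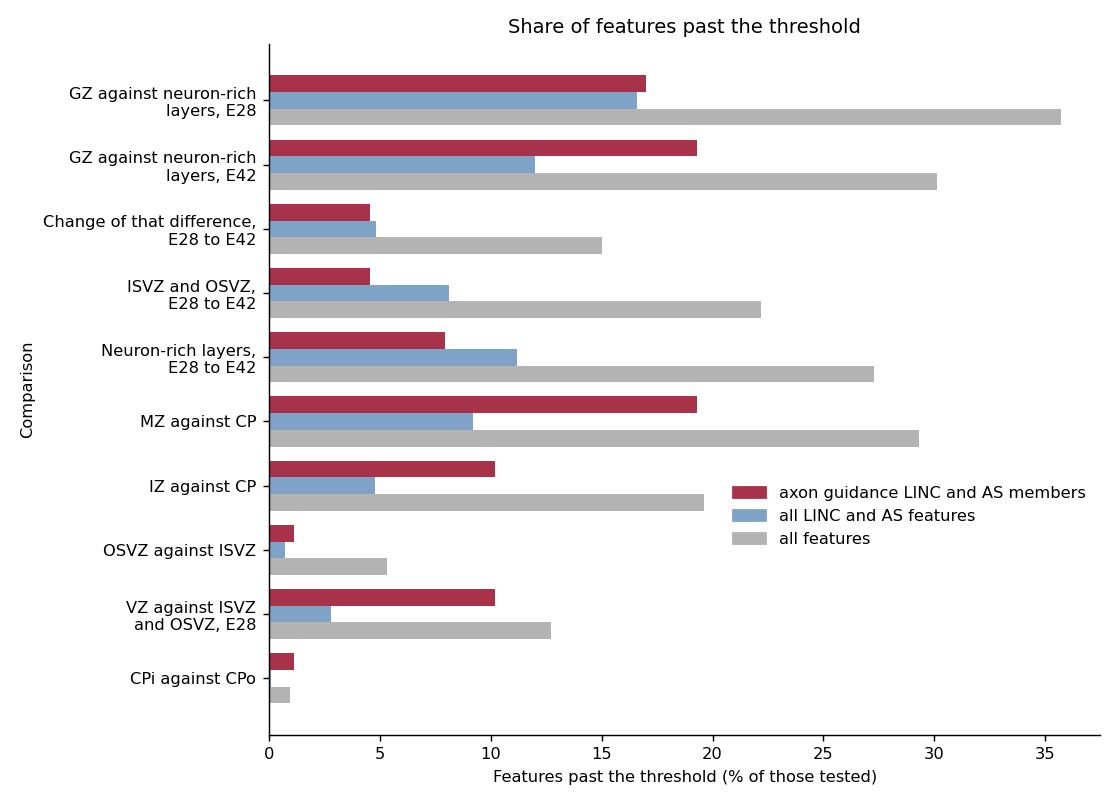
Share of features with an adjusted p under 0.05 in each of the 10 comparisons, in percent of the features tested, for the 88 axon guidance members, all 10836 LINC and AS features and all 26858 features. The bars of the members are shortest for the OSVZ against the ISVZ and the CPi against the CPo (1.14% each) and longest for the GZ at E42 and the MZ (19.3% each).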

How the data were processed

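Poly(A) RNA of laser-captured layers was sequenced in 36 libraries, of which 35 were used. The authors deposited whole-number counts per feature for each library, made by trimming adapters, aligning with HISAT2 to the species' own genome and counting with HTSeq on the TS_3.0 annotation, with a strand setting not given in the sources used here. Lines that name no feature stayed out of the library sizes, and ambiguous reads were 14.99% to 19.06% of each file.

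Counts were fitted with edgeR 4.0.16 in R 4.3.3 (TMM, filterByExpr with a minimum count of 10, robust quasi-likelihood test, 18 groups of layer and stage, 17 residual degrees of freedom), with Benjamini-Hochberg adjustment over 26858 features and a threshold of 0.05. Layers weigh alike within a comparison. Bounds for groups without a read use 3 counts over the group. Ratios of small counts carry 95% intervals, and intervals and bounds cover counting error only, since PCR copies are not independent molecules. The script was tested on simulated counts with 200 changed features.

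Samples were grouped by the layer and age in their labels. The members, the other guidance genes and the comparisons were chosen with earlier results of these data known. Members were named by rule: the most counted one of each family, the 6 largest changes per direction among calls of a comparison, the 10 lowest p of any difference, and the tested members of gene names with 3 or more of them. EFNA1-AS-1 and EPHA3-AS-1 fall outside it and were chosen after their values were seen. Same-numbered libraries deviated together at E28 (all 15 pairs, correlation of deviations 0.167 to 0.265) and E37 (all 6 pairs, 0.129 to 0.272). At E42 they did so for only 10 of the 15 pairs (−0.117 to 0.232). The labels do not explain these numbers. The main fit did not pair libraries, so the p-values given leave this shared deviation out. The alternative with the replicate number as a block used it at every stage, E42 included. Alternatives were DESeq2 1.42.0, other size factors and filters, the replicate number as a block, the handling of the repeated counts, fewer features or libraries, and each library left out. For the last, the dispersion trend was estimated on every 15th feature. No sequence, length or position of the members was at hand.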

Additional observations from a re-analysis of the deposited data

Results flagged for a closer look

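The difference between GZ and neuron-rich layers changed from E28 to E42 past the threshold in 4 members by a test of the change itself (edgeR quasi-likelihood test, adjusted over all features). The change on the log2 scale was 4.64 for PLXNA2-AS-2 (from −1.87 to 2.77), 3.01 for SEMA4D-AS-2 (from −1.10 to 1.91), 2.15 for EPHB1-AS-5 (from −1.36 to 0.79) and 0.88 for PLXNA4-AS-9 (from −1.78 to −0.90). In the first 3 only the change and 1 of the 2 stages passed the test: the adjusted p was 0.14 at E28 for PLXNA2-AS-2, 0.12 at E28 for SEMA4D-AS-2 and 0.21 at E42 for EPHB1-AS-5. PLXNA4-AS-9 was lower in the GZ at both stages. The E42 side of each rests on 1 VZ library. In SEMA4D-AS-2 the IZ libraries of E42 (1.28 and 1.26 CPM) lay within the GZ range of 0.734 to 2.49 CPM.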

How the results depend on the processing

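The number of members called stayed within 1.5 times of the reported one in the settings not named here, and 0 of the 82 named calls turned direction. With the replicate number as a block the count was 7 instead of 4 for the change of the GZ difference, 9 instead of 4 for the ISVZ and OSVZ from E28 to E42, 14 instead of 7 for the neuron-rich layers from E28 to E42, 2 instead of 1 for OSVZ against ISVZ and 2 instead of 1 for CPi against CPo. The block cost 7 named calls, each given beside its result, and changed no other named call. With only the compared libraries fitted it was 8 at E28 for GZ against neuron-rich layers (15), 7 for the ISVZ and OSVZ (4), 2 for OSVZ against ISVZ and 0 for CPi against CPo (edgeR, 6 at an unadjusted p under 0.05).

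With the repeated file kept as labelled the count was 2 for the ISVZ and OSVZ, 5 for the VZ (9), 0 for OSVZ against ISVZ (edgeR, 7 unadjusted) and 0 for CPi against CPo (edgeR, 4 unadjusted), and with both repeated files out it was 3 for the VZ and 2 for OSVZ against ISVZ. With LINC and AS features alone it was 10 for E42 (17), 3 for IZ against CP (9) and 5 for the VZ. Without a filter it was 11 for the neuron-rich layers, 2 for OSVZ against ISVZ, 2 for CPi against CPo and 41 for any difference (26). DESeq2 gave 11 for the neuron-rich layers and 2 for OSVZ against ISVZ, where its size factors, leaving out the 20 most abundant features, and a filter level reached in 2 libraries, chosen after seeing the data, each gave 2. DESeq2 gave no adjusted p for 15 of the 82 calls and lost 3 of the other 67.

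With 1 library left out the counts were 9 to 16 for E28 (lowest without the first ISVZ, first VZ or second OSVZ library), 8 to 18 for E42 (second IZ), 3 to 6 for the change, 1 to 6 for the ISVZ and OSVZ (second E42 ISVZ), 5 to 11 for the neuron-rich layers, 9 to 18 for MZ against CP (first E42 MZ), 3 to 10 for IZ against CP, 1 to 2 for OSVZ against ISVZ, 3 to 10 for the VZ, 0 to 1 for CPi against CPo and 20 to 29 for any difference. Few reads per member and 1 to 3 libraries per layer and stage limit these calls.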
